A study of Mus musculus with 18 samples.

Results

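The comparison set nasal mucosa of mice given papain and the compound C10 against control mucosa, with 6 libraries a side, and its members were the 12 libraries labelled C10 or CON of 18 in the series. All genes of the count table were compared between them. The remaining 6 libraries, labelled CRS, came from mice given papain without the compound and are given beside the results. The study treated mice as a model of chronic rhinosinusitis, in which the nose and sinuses stay inflamed, and sequenced poly(A)-selected RNA of the nasal mucosa. Papain, a plant protease, was dissolved in phosphate-buffered saline and given into the nose at 20 µg in 20 µL on days 0 to 2 and 7 to 11. C10 was given at 10 mg/mL, 10 µL per side, once daily over 10 days that began with the papain course. No label of the C10 samples names papain. They are taken to have received it because the compound is described as a treatment of mice in the CRS model. The labels do not say what CON received, whether CRS received the solvent of the compound, or the strain, genotype, age, sex or hour of collection. Whether libraries were made from separate animals is not stated either, and p-values refer to the spread between libraries only.

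The title of the series describes C10 as an inhibitor of APE1 (gene Apex1), an enzyme of base excision repair that also reduces cysteines of transcription factors and so changes their binding to DNA. Nasal mucosa holds a respiratory lining with ciliated and mucus-making cells and an olfactory lining whose sensory neurons are renewed from basal progenitors throughout life. Beneath both lie glands, vessels, fibroblasts and macrophages, and these macrophages digest debris in lysosomes, the acid compartments of the cell. Proteases such as papain are known to release IL-33, an alarm cytokine stored in epithelial nuclei, which drives type 2 inflammation.

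Library totals ran from 15883573 to 18128186 counts in C10 and from 16510920 to 18433866 in CON (n = 6 each). On the first principal component, with 32.7% of the variance, C10 lay between -32.0 and 31.8 and CON between -26.7 and 49.5. CRS spread from -80.9 to 64.6, and each count below that leads a section was also computed without the CRS libraries 1, 2 and 5, which lay outside the others. The tissue label was checked on defining genes. Omp, of mature olfactory neurons, lay between 1241 and 3026 CPM (counts scaled to a common library size with edgeR's TMM factors) over the 12 libraries, Foxj1, of ciliated cells, between 136 and 244 CPM, and Krt5, of basal cells, between 118 and 193 CPM. Genes of both linings were present in every library of C10 and CON.

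C10 mucosa had lower levels of lysosomal genes, of a pair of macrophage genes, of elastin and of inducible heat shock genes than control mucosa, and higher levels of 3 genes that follow the circadian clock, of Il33 and of the neuronal progenitor gene Neurod1. Of 18291 genes tested with edgeR, 8 rose (0.0437%) and 21 fell (0.115%) in C10 against CON at an adjusted p under 0.05. All 29 called genes had no overlap between the 6 libraries of C10 and the 6 of CON. Over all tested genes, C10 lay wholly above CON for 134 (0.733%) and wholly below it for 198 (1.08%). The size of the called changes ran from 0.42 to 3.67 on the log2 scale, and 10 of the 29 exceeded 2-fold. At an unadjusted p under 0.05 there were 2401 of the 18291 genes, both directions together. List counts at that threshold below are to be read against this share. The median log2 fold change of all tested genes was 0.01, with 52.6% above 0.

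None of the 29 genes (0 of 29) was called in CRS against CON, a comparison that called 1 gene of 18291 (0.00547%), so no gene passed both in papain alone and in papain with compound. That does not show a difference between C10 and CRS, which needs its own contrast. C10 against CRS called 15 genes (0.082%), 3 higher (0.0164%) with Il33 among them and 12 lower (0.0656%) with Gpnmb, Uap1l1 and Dpp7 among them. Of the 29 genes, 15 had an unadjusted p under 0.05 in CRS against CON (edgeR). The CRS mean lay between those of CON and C10 for 26 of the 29. These genes were selected for a gap between CON and C10, and a CRS mean can fall inside that gap without an effect of papain. The share over all tested genes is not given, so this count does not show that papain alone moved these genes part of the way. In C10 against CRS, 4 of the 29 were called and 25 had an unadjusted p under 0.05 (edgeR). Over all 18291 tested genes those unadjusted counts were 2569 and 2410. These comparisons share the CON or the C10 libraries, and the values of each are given side by side below. The 1 gene called in CRS against CON, Ppargc1a, a coactivator of mitochondrial genes, ranged from 38.5 to 46.1 CPM in C10 (median 39.4) and from 27.5 to 42.8 CPM in CON (median 34.7), with from 49.6 to 78.7 CPM (median 60.9) in CRS. Its groups overlapped in C10 against CON, where the log2 fold change was 0.21 ± 0.12 (edgeR adjusted p = 0.448), against 0.83 ± 0.12 in CRS against CON (edgeR adjusted p = 0.018) and -0.62 ± 0.12 in C10 against CRS (edgeR adjusted p = 0.0458).

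**Figure D1:**
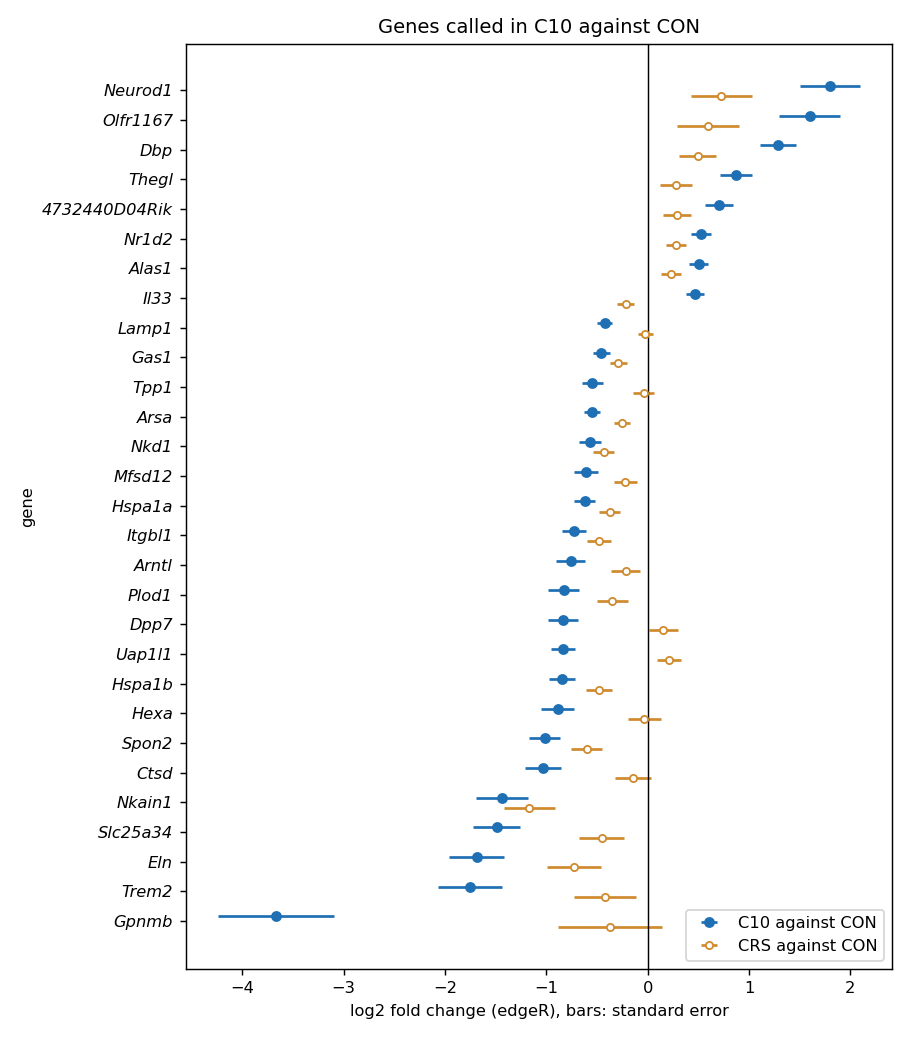
Log2 fold changes (x axis) of the 29 genes called in C10 against CON (y axis), from the edgeR fit, with bars for the standard error. Filled blue circles are C10 against CON and open orange circles CRS against CON, which share the CON libraries; the blue values run from -3.67 for Gpnmb to 1.80 for Neurod1.

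The counts of calls differed widely between fits. With 1 library left out at a time, edgeR called 1 to 23 genes higher and 2 to 87 lower. The low end was reached without C10 4, with 1 higher and 2 lower, and the high end without CRS 1. A fit of C10 and CON alone called 46 higher and 115 lower, and one without CRS 1, 2 and 5 called 56 and 141. DESeq2 called 118 and 186. Dbp, Uap1l1 and Arsa passed in all 30 alternative fits that test against no minimum fold, and no called gene changed sign in any of them. Without C10 4 those 3 alone remained of the 29, without C10 5 6 of the 29 passed and without CON 2 8 did. When edgeR tested against a 1.5-fold minimum, 0 genes passed after adjustment and 300 had an unadjusted p under 0.05, while DESeq2 without a minimum called all of the 29.

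Of the 50 gene lists described here, the lysosomal hydrolases held the most calls, 5 of 44 tested, against 29 of 18291 over all genes. Shorter lists had a like share of calls, such as 2 of 16 for the clock core and 2 of 18 for heat shock. The deepest fall was in Gpnmb, a glycoprotein of lysosomes and late endosomes in macrophages that is known to rise when lysosomes are under stress. Gpnmb (ENSMUSG00000029816, chromosome 6 from 49036546 to 49070929) ranged from 16.7 to 77.3 CPM in C10 (median 30.8) and from 249 to 1115 CPM in CON (median 333). It fell 12.7-fold (log2 fold change -3.67 ± 0.57; edgeR adjusted p = 0.0122), and every C10 library lay far below the lowest CON library. In CRS it ranged from 110.1 to 787 CPM (median 349), with a log2 fold change of -0.37 ± 0.51 against CON (edgeR adjusted p = 0.769) and of -3.30 ± 0.56 for C10 against CRS (edgeR adjusted p = 0.0239). Its call ended without C10 4 or C10 5 (edgeR adjusted p up to 0.0556).

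Of 44 lysosomal hydrolases and their cofactors tested, 5 fell and 0 rose, and 0 of 44 lay above 0. Their median log2 fold change was -0.47, against 0.01 over all genes, and 15 of the 44 had C10 wholly below CON. In CRS against CON the median was -0.14, and in C10 against CRS it was -0.29. The mean log2 CPM of the list ran from 6.04 to 6.32 in C10 and from 6.36 to 6.99 in CON, and the groups did not overlap.

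Ctsd encodes cathepsin D, the main aspartic protease of the lysosome. Ctsd (ENSMUSG00000007891, chromosome 7 from 142375911 to 142388038) ranged from 306 to 365 CPM in C10 (median 346) and from 515 to 1108 CPM in CON (median 639), and fell 2.04-fold (-1.03 ± 0.18; edgeR adjusted p = 0.0275). Its C10 libraries were tightly grouped, while CON 5 stood above the other CON libraries. Hexa, the alpha subunit of the hexosaminidase that degrades gangliosides, ranged from 73.1 to 98.2 CPM in C10 (median 83.5) and from 122 to 236 CPM in CON (median 147), and fell without overlap (-0.89 ± 0.16; edgeR adjusted p = 0.0327). Arsa, which removes sulfate from sulfatides, ranged from 17.6 to 21.1 CPM in C10 (median 19.2) and from 24.5 to 31.9 CPM in CON (median 28.3), and fell without overlap (-0.55 ± 0.08; edgeR adjusted p = 0.0108).

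The 2 other called hydrolases are exopeptidases that trim short chains from the ends of peptides. Dpp7, a dipeptidyl peptidase, ranged from 11.2 to 15.2 CPM in C10 (median 12.4) and from 18.7 to 35 CPM in CON (median 21.3), and fell (-0.84 ± 0.15; edgeR adjusted p = 0.0294), with a value of -0.99 ± 0.15 against CRS (edgeR adjusted p = 0.00642). Tpp1, a tripeptidyl peptidase that lies outside the naming rule and was chosen after its values were seen, ranged from 57.9 to 79.1 CPM in C10 (median 72.5) and from 86.3 to 131 CPM in CON (median 102), and fell (-0.55 ± 0.11; edgeR adjusted p = 0.0431). With 1 library left out, Arsa passed in all 18 fits, Dpp7 in 11, Ctsd in 10, Hexa in 9 and Tpp1 in 5. Ctsb, a cysteine protease, and Lgmn, an asparaginyl endopeptidase, had no overlap between the groups but did not pass (-0.82 ± 0.18, edgeR adjusted p = 0.0827; -0.59 ± 0.12, edgeR adjusted p = 0.0525). Without CON 5, which stood apart in Ctsd and Dpp7, the median of the list was -0.39 and edgeR called 3 of its members lower. Without C10 4 it called 1 and with the replicate block 2, while it called 10 with C10 and CON alone, 12 without CRS 1, 2 and 5 and 17 with the level of mature olfactory neurons as a covariate, and DESeq2 called 16.

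Among 29 lysosomal membrane proteins, 2 fell and 0 rose, 27 lay below 0, and the median log2 fold change was -0.24 (CRS against CON, -0.04). Lamp1, the most abundant glycoprotein of the lysosomal membrane, ranged from 549 to 584 CPM in C10 (median 575) and from 704 to 928 CPM in CON (median 733), and fell 1.34-fold (-0.42 ± 0.08; edgeR adjusted p = 0.0321). The C10 libraries lay within a narrow range below all CON libraries. Lamp1 passed in 8 of 18 fits with 1 library left out, and not with the replicate block (edgeR adjusted p = 0.115). Cd63, a tetraspanin of late endosomes, ranged from 177 to 206 CPM in C10 (median 187) and from 239.6 to 409 CPM in CON (median 255), without overlap, at -0.58 ± 0.13 (edgeR adjusted p = 0.103), and its value against CRS was -0.81 ± 0.13 (edgeR adjusted p = 0.0206). The mean log2 CPM of the membrane list ran from 5.91 to 6.15 in C10 and from 6.26 to 6.70 in CON.

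The vacuolar ATPase, the proton pump that acidifies lysosomes, had no called member in C10 against CON. Of its 23 tested subunits and partners 5 lay above 0 and 8 were lower at an unadjusted p under 0.05 (edgeR; 2 were called by DESeq2), with a median of -0.13, against 0.18 in CRS against CON and -0.31 in C10 against CRS. Atp6v1c1, the subunit of smallest p, ranged from 47.2 to 54.9 CPM in C10 (median 50.1) and from 58.3 to 69.1 CPM in CON (median 60.4), and its groups did not overlap (-0.28 ± 0.06; edgeR adjusted p = 0.0827). Of 40 genes of autophagy and nutrient sensing, 0 were called by edgeR or DESeq2 and the median was -0.05. Of these 40, 7 were lower at an unadjusted p under 0.05 (edgeR), against 2401 of 18291 in either direction over all genes. Flcn, a nutrient sensor that restrains the lysosomal transcription factors TFEB and TFE3, ranged from 37.4 to 47 CPM in C10 (median 42.1) and from 38.4 to 53.6 CPM in CON (median 48), overlapping (-0.20 ± 0.09; edgeR adjusted p = 0.37), with from 60.1 to 79.7 CPM (median 64.8) in CRS and -0.70 ± 0.09 against CRS (edgeR adjusted p = 0.00246).

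**Figure D2:**
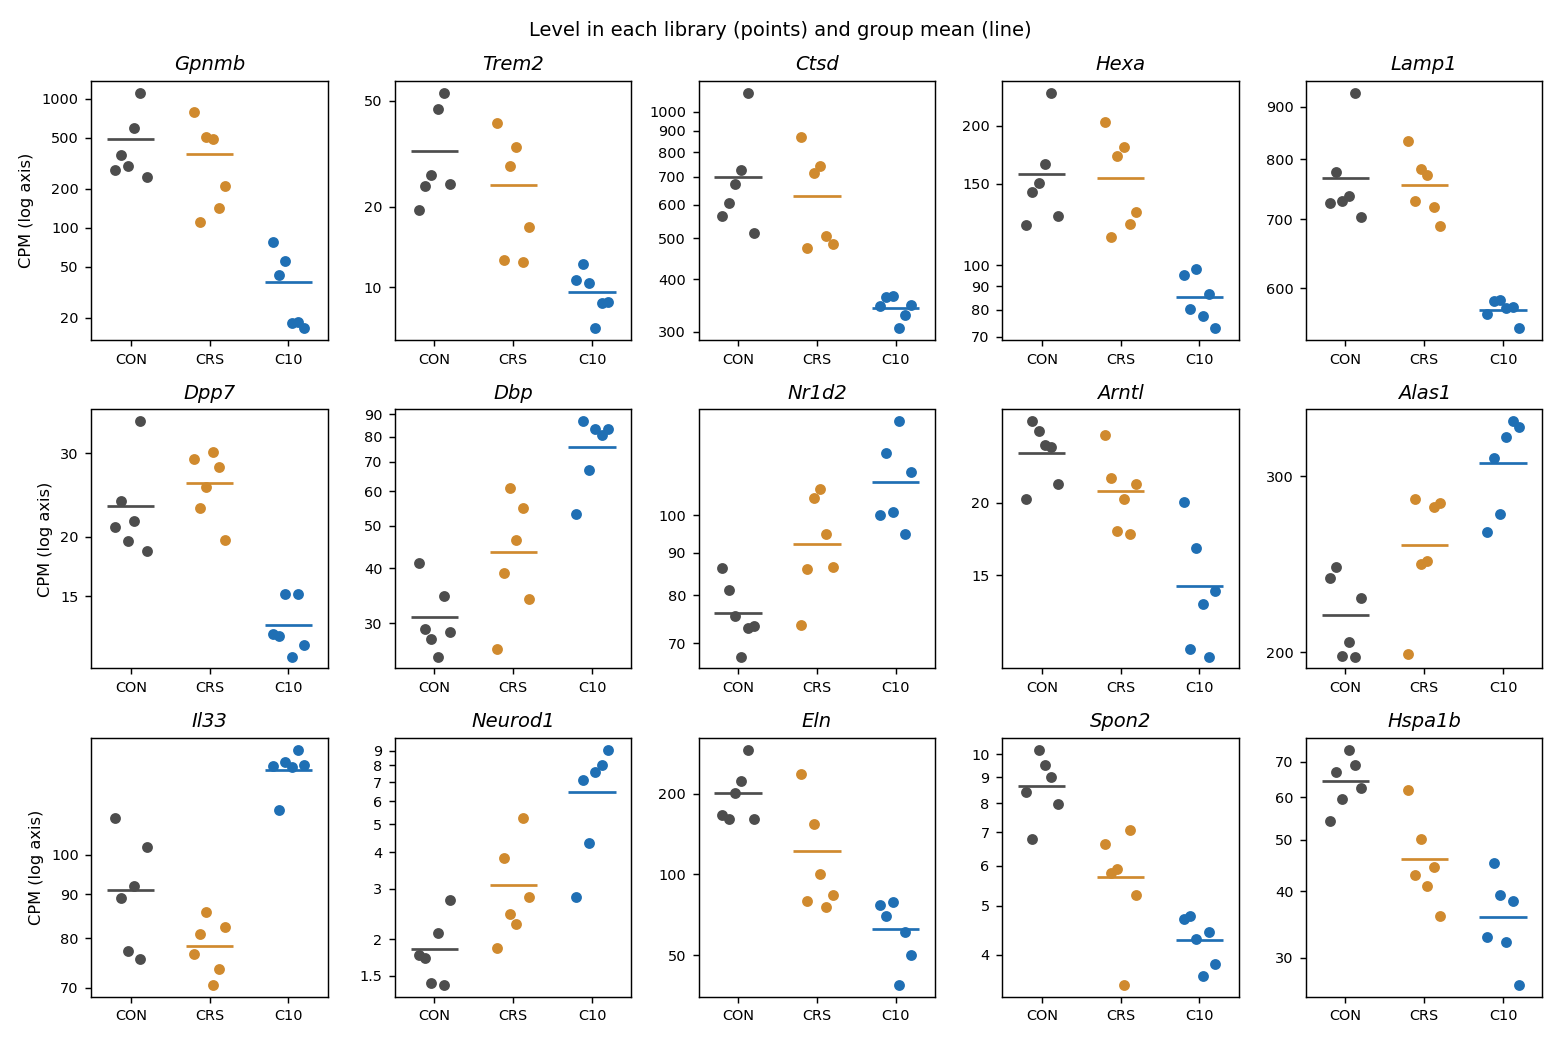
Level of 15 genes in each library, in CPM on log axes (y), by group (x). Points are libraries and lines group means. For each gene shown the 6 C10 points lie wholly above or wholly below the 6 CON points, with Gpnmb at 16.7 to 77.3 CPM in C10 and 249 CPM or more in CON.

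Lysosomal genes are known to share a promoter element around the letters CACGTG, which TFEB binds, and the stretches before the start of 4 called genes that hold it are printed. Of the 7 called genes on the lysosomal lists the other 3, Hexa, Tpp1 and Gpnmb, had a window without these letters. RefSeq promoter windows (GRCm38.p6, the mm10 build; 250 bases before to 50 after the start) were at hand for 25 of the 29 called genes and for 13073 tested genes. Capitals mark the E-box CACGTG and, where it is extended, the CLEAR-like form GTCACGTG, which contains the E-box; both strands were searched. The 250 bases before the start are given 5′ to 3′ on the strand of the gene, for Ctsd from chr7:142387828-142388077 (minus strand), for Lamp1 from chr8:13158911-13159160 (plus strand), for Arsa from chr15:89477425-89477674 (minus strand) and for Dpp7 from chr2:25356333-25356582 (minus strand).
Ctsd: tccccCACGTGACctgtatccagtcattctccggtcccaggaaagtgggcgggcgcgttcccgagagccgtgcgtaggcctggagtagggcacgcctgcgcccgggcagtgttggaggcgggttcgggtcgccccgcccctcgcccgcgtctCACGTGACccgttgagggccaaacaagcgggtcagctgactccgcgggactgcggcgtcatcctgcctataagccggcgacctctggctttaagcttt
Lamp1: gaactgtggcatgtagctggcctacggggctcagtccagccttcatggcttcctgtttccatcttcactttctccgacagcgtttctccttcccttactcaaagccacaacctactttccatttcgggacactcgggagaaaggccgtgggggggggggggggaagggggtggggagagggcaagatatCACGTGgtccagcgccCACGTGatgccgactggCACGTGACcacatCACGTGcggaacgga
Arsa: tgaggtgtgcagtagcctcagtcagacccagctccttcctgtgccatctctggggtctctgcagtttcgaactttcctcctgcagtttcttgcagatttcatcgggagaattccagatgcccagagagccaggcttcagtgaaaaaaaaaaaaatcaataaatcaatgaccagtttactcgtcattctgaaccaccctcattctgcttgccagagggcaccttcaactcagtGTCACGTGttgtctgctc
Dpp7: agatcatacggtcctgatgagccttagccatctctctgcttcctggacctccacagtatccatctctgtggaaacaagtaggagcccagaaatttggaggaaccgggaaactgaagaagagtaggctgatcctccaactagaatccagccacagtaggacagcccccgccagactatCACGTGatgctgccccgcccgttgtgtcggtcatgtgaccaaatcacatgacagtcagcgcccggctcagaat
Positions count from the RefSeq start, which can differ from that of the gene model in the count table. In the window of Ctsd 2 CLEAR-like matches began 245 and 98 bases before the start. The model of Ctsd in the count table starts within the printed stretch, so the match at 98 bases lies inside that model. In the window of Lamp1 4 E-boxes lay within 61 bases of the start, 1 of them in CLEAR-like form. Arsa had 1 CLEAR-like match 18 bases before the start and Dpp7 1 E-box 73 bases before it. Of all tested genes with a window, 10.5% held an E-box and 4.07% a CLEAR-like match. Of the 57 lysosomal hydrolases and membrane proteins with a window, 17 (29.8%) held an E-box and 13 (22.8%) a CLEAR-like match, and of 18 genes called lower with a window 5 (27.8%) and 3 (16.7%) did. The matches are a description of the letters and do not show that a factor was bound.

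Uap1l1, which resembles the enzyme that makes UDP-N-acetylglucosamine, lies beside Dpp7 on chromosome 2, and a gap of 3529 bases separates them. Uap1l1 (ENSMUSG00000026956, chromosome 2 from 25359889 to 25365682) ranged from 26.5 to 35.4 CPM in C10 (median 31.7) and from 44.5 to 78.5 CPM in CON (median 54.5). It fell 1.79-fold (-0.84 ± 0.12; edgeR adjusted p = 0.0108), with no overlap, and its value against CRS was -1.04 ± 0.12 (edgeR adjusted p = 0.00117). Of the 17 other tested genes within 100 kb of the pair, 0 were called, and their log2 fold changes ran from -0.61 to 0.32.

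Beside the lysosomal genes, a receptor of macrophages was among the falls. Trem2, a lipid receptor of macrophages, ranged from 7.02 to 12.2 CPM in C10 (median 9.57) and from 19.5 to 53.6 CPM in CON (median 25.3), and fell 3.37-fold without overlap (-1.75 ± 0.31; edgeR adjusted p = 0.0321). Its call held in 8 of 18 fits with 1 library left out, and not with the replicate block (edgeR adjusted p = 0.115). Of 18 macrophage and monocyte markers 2 fell, Gpnmb and Trem2, 17 lay below 0, and the median was -0.73 (CRS against CON, -0.41). At an unadjusted p under 0.05 (edgeR) 9 of the 18 were lower and 0 higher. Cd68, a lysosomal glycoprotein of macrophages, ranged from 15 to 37.5 CPM in C10 (median 21.2) and from 38.6 to 117 CPM in CON (median 54.1), without overlap, at -1.50 ± 0.39 (edgeR adjusted p = 0.137). Some markers less tied to lysosomes were below 0 as well, with overlap between the groups: Csf1r, the receptor of the macrophage growth factor, was at -0.76 ± 0.38, Adgre1 (F4/80) at -1.02 ± 0.48, C1qa at -0.75 ± 0.34 and Mrc1 at -0.60 ± 0.25, with edgeR adjusted p from 0.315 to 0.401. The summed level of the 18 markers ran from 447 to 964 CPM in C10 and from 896 to 2499 CPM in CON, and none of the 18 was at 0 in both groups.

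With the macrophage level as a covariate, a fit added after the data were seen, the median of the hydrolases was -0.25 with 8 of 44 called lower, and Gpnmb was at -2.82 and Trem2 at -1.16. The covariate was the mean log2 CPM of the macrophage and monocyte markers without Gpnmb, Trem2 and Cd68. That fit called 28 of the 29 genes. In bulk tissue, fewer macrophages and less RNA of these genes per macrophage cannot be told apart. The lists of neutrophils, antigen presentation, T and NK cells, and B and plasma cells had 0 members called by edgeR, and 0 at an unadjusted p under 0.05 but for 1 higher among B and plasma cell genes; DESeq2 called 1 of the latter higher and 0 of the others. Neutrophils had a median of -0.28 over 11 tested genes, antigen presentation 0.00 over 13, T and NK cells 0.21 over 18, and B and plasma cells 0.73 over 15. These medians moved with single libraries: with 1 left out they ran from -0.49 (without C10 1) to -0.04 (without CON 3) for neutrophils, from -0.27 (without C10 3) to 0.30 (without CON 4) for antigen presentation, and from -0.03 (without C10 1) to 0.48 (without CON 4) for T and NK cells. With the macrophage covariate they were 0.36, so that the sign for neutrophils turned, 0.82, 1.11 and, for B and plasma cells, 1.70, with 2 members called higher in each of antigen presentation and T and NK cells. The median of B and plasma cells was 0.02 with the replicate block and -0.03 with limma-voom, where its sign turned.

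Genes of the circadian clock were among the rises. The clock is a loop in which ARNTL and CLOCK drive the Per, Cry, Nr1d and Dbp genes, whose products feed back on it. Dbp, a transcription factor of the output of the loop, (ENSMUSG00000059824, chromosome 7 from 45705088 to 45710203) ranged from 53.4 to 86.7 CPM in C10 (median 81.7) and from 25.2 to 41.1 CPM in CON (median 28.9). It rose 2.44-fold without overlap (1.29 ± 0.18; edgeR adjusted p = 0.0108), and passed in all 18 fits with 1 library left out. In CRS Dbp ranged from 26.2 to 61.1 CPM (median 42.7), at 0.49 ± 0.18 against CON (edgeR adjusted p = 0.252) and 0.79 ± 0.18 for C10 against CRS (edgeR adjusted p = 0.101).

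Nr1d2, which encodes the repressor REV-ERB beta, ranged from 94.9 to 129.8 CPM in C10 (median 107) and from 67.5 to 86.3 CPM in CON (median 74.4), and rose without overlap (0.52 ± 0.10; edgeR adjusted p = 0.0327). Arntl (BMAL1), the gene REV-ERB proteins repress, moved the other way: it ranged from 10.9 to 20.0 CPM in C10 (median 13.7) and from 20.3 to 27.6 CPM in CON (median 25), and fell 1.69-fold (-0.76 ± 0.14; edgeR adjusted p = 0.0327). The lowest CON library and the highest C10 library of Arntl lay close together. Alas1, the rate-limiting enzyme of haem synthesis outside red cells and a known clock output, ranged from 264 to 340.4 CPM in C10 (median 321) and from 198 to 243 CPM in CON (median 216), and rose 1.42-fold (0.50 ± 0.10; edgeR adjusted p = 0.0362). The next enzyme of that pathway, Alad, was at 0.28 ± 0.12 (edgeR adjusted p = 0.317), and of 14 haem genes Alas1 alone was called.

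Other genes of the loop did not pass. Per2 was at 0.54 ± 0.11, Per3 at 0.63 ± 0.13, Tef at 0.53 ± 0.11 (edgeR adjusted p = 0.0735 each), Nr1d1 at 0.63 ± 0.15 and Hlf at 0.41 ± 0.12 (edgeR adjusted p = 0.114 and 0.167). Npas2 was at -0.58 ± 0.15 (edgeR adjusted p = 0.132), Clock at -0.28 ± 0.09 (edgeR adjusted p = 0.209) and Nfil3, which competes with DBP for the D-box, at -0.92 ± 0.19 (edgeR adjusted p = 0.0723). Per2, Per3, Tef, Nr1d1 and Hlf had the sign of Dbp and Npas2, Clock and Nfil3 that of Arntl. Per1, which also answers to glucocorticoids and to acute stimuli, did not share the sign of Dbp, at -0.09 ± 0.18 (edgeR adjusted p = 0.877). Of 16 core genes 1 rose and 1 fell, with 8 higher and 3 lower at an unadjusted p under 0.05. The mean log2 CPM of the core list ran from 4.77 to 5.01 in C10 and from 4.66 to 4.74 in CON, without overlap. In CRS it ran from 4.78 to 4.88, also wholly above CON and within the range of C10. Of the 16 core genes 12 lay above 0 and 4 below in C10 against CON, so this mean depends on which genes were listed. Of 18 output genes 2 rose and 0 fell, with a median of 0.07. DESeq2 called 4 core genes higher and 2 lower, and 4 output genes higher and 1 lower. Without CRS 1, 2 and 5 edgeR called 3 core genes higher and 2 lower, and 4 output genes higher and 1 lower.

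Apart from Dbp, the clock calls changed with single libraries: Nr1d2 passed in 7 of 18 fits with 1 library left out, Alas1 in 7 and Arntl in 10, with edgeR adjusted p up to 0.134 for Nr1d2 and Alas1 and 0.112 for Arntl, and each was lost without C10 4. None of the windows of Dbp, Nr1d2, Alas1 and Arntl held an E-box or a D-box (TTATGTAA or TTACGTAA, both strands). These windows span 250 bases before to 50 after the start, and sites outside them and other clock elements were not searched. The D-box was found in 1.03% of the windows of tested genes. Of 17 genes induced by glucocorticoids 0 were called by edgeR and 1 by DESeq2, 3 were lower at an unadjusted p under 0.05, and the median was -0.11. The labels do not give the hour at which mucosa was taken, so its part in the clock values was not tested.

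**Figure D3:**
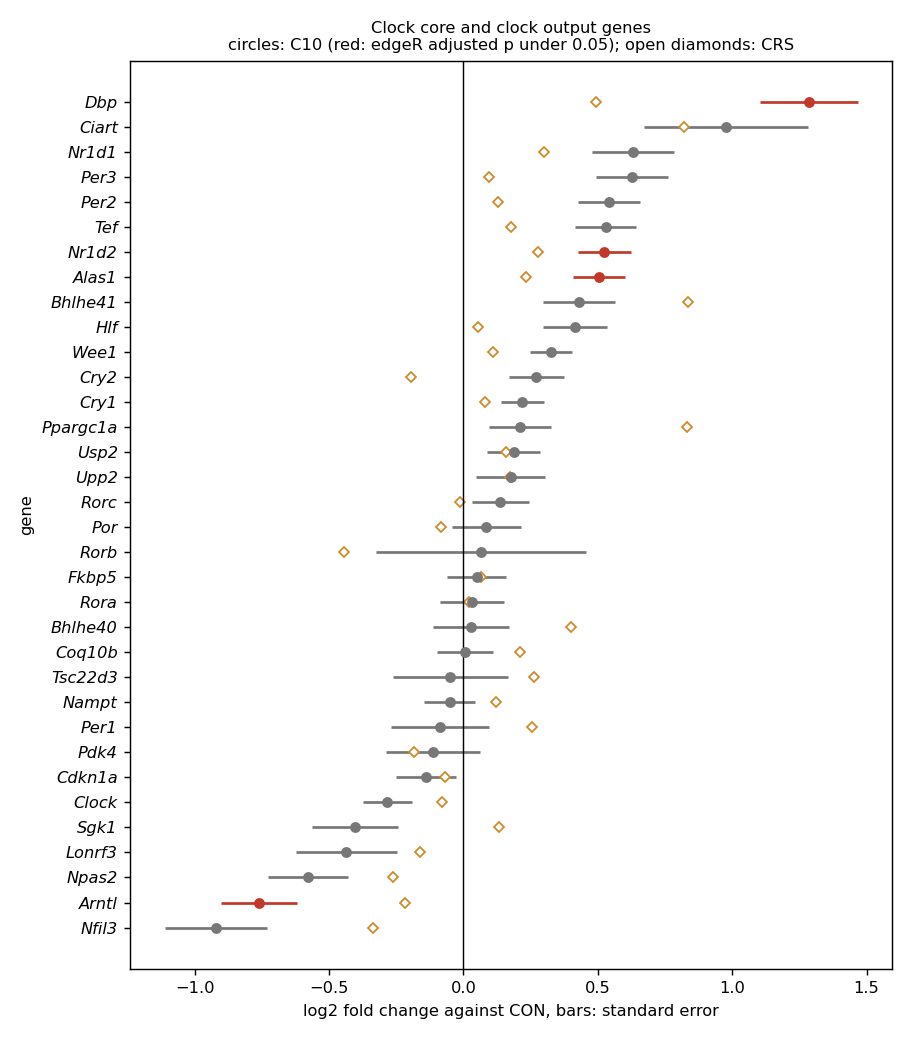
Log2 fold changes against CON (x axis) of the tested clock core and clock output genes (y axis). Circles with standard error bars are C10 against CON, in red where the edgeR adjusted p was under 0.05, and open diamonds are CRS against CON; Dbp at 1.29 is the highest circle and Nfil3 at -0.92 the lowest.

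Il33 was the only called gene of the type 2 list. Il33 (ENSMUSG00000024810, chromosome 19 from 29925114 to 29960718) ranged from 113 to 133 CPM in C10 (median 127) and from 75.7 to 110.4 CPM in CON (median 90.5), so that the lowest C10 library lay just above the highest CON library. It rose 1.38-fold (0.47 ± 0.09; edgeR adjusted p = 0.0327). In mice given papain alone, Il33 ranged from 70.5 to 85.9 CPM (median 78.7) in CRS, at -0.22 ± 0.09 against CON, which did not pass (edgeR adjusted p = 0.281), and C10 against CRS was at 0.68 ± 0.09 (edgeR adjusted p = 0.00233). The call against CON held in 9 of 18 fits with 1 library left out and ended without CON 2, 3, 4 or 5 or C10 1, 3, 4, 5 or 6 (edgeR adjusted p up to 0.116, without C10 5). With the replicate number as a block it did not pass (edgeR adjusted p = 0.0957).

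The type 2 cytokines Il5 and Il13 were near the limit of detection. Of 24 type 2 genes listed, 16 were tested, 7 lay above 0, and the median was -0.21 (0.12 with the macrophage covariate, so its sign turned). Summed over 6 libraries, Il5 had 2 counts in C10, 3 in CON and 13 in CRS, and Il13 had 4, 1 and 14. In CRS 8 of the 13 counts of Il5 came from 1 library, as did 12 of the 14 counts of Il13. A total of 3 counts in a library equals 0.163 to 0.191 CPM in these 12 libraries, so differences at this level were not detectable. Clca1, a protein of mucus-making cells that IL-13 induces, had 272 counts in C10, of which 219 came from 1 library, and 6 in CON. Chil4, a chitinase-like protein of type 2 inflammation, ranged from 13.3 to 527 CPM in C10 (median 37.6) and from 0.176 to 22 CPM in CON (median 1.78), with overlap through CON 6 alone (5.24 ± 1.40; edgeR adjusted p = 0.138), and Chil3 was at -1.36 ± 0.37 (edgeR adjusted p = 0.139). Il4 was at -0.18 ± 0.24 (edgeR adjusted p = 0.788). Mast cell and eosinophil markers had 0 members called by edgeR or DESeq2 of 9 tested, with 1 higher at an unadjusted p under 0.05.

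All 15 tested mucus and goblet cell genes lay above 0, with a median of 0.30. None of them (0 of 15) was called by edgeR, 3 were higher at an unadjusted p under 0.05 and 1 was called by DESeq2. In CRS against CON their median was -0.24 and in C10 against CRS 0.47. Tff2, a trefoil peptide that stabilises mucus, ranged from 74.6 to 106 CPM in C10 (median 80.5) and from 46.6 to 69.7 CPM in CON (median 54.4), without overlap, but did not pass (0.57 ± 0.13; edgeR adjusted p = 0.0827), while C10 against CRS did (0.93 ± 0.13; edgeR adjusted p = 0.00302). Muc5ac, the main mucin of goblet cells, ranged from 238 to 1532 CPM in C10 (median 1131) and from 361 to 899 CPM in CON (median 397), with overlap (0.92 ± 0.43; edgeR adjusted p = 0.365). Galnt15, a transferase that starts O-linked sugar chains, had no overlap and was at 0.45 ± 0.12 (edgeR adjusted p = 0.131), against 0.80 ± 0.12 for C10 against CRS (edgeR adjusted p = 0.00587). The summed level of the 15 genes ran from 8765 to 11804 CPM in C10 and from 5873 to 9746 CPM in CON, and Tff3 and Scgb3a2 of the same list were at 0 in both groups.

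Among genes of newly forming olfactory neurons 1 rose in C10. Neurod1, a transcription factor that late progenitors switch on before they become neurons, (ENSMUSG00000034701, chromosome 2 from 79452521 to 79456751) ranged from 2.8 to 9.06 CPM in C10 (median 7.35) and from 1.39 to 2.73 CPM in CON (median 1.74). It rose 3.48-fold (1.80 ± 0.30; edgeR adjusted p = 0.018), and its lowest C10 library lay just above the highest CON library. In CRS it was at 0.73 ± 0.30 against CON (edgeR adjusted p = 0.294) and C10 against CRS was at 1.07 ± 0.29 (edgeR adjusted p = 0.139). The call held in 11 of 18 fits with 1 library left out and ended without CON 2, 3, 4 or 5 or C10 4, 5 or 6 (edgeR adjusted p up to 0.061).

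Of 14 tested markers of olfactory progenitors and immature neurons Neurod1 alone was called by edgeR, 6 were without CRS 1, 2 and 5, and 7 by DESeq2. All 14 lay above 0, with a median of 0.81 and 11 at an unadjusted p under 0.05, against a median of 0.38 in CRS against CON. Neurog1, which acts before Neurod1 in progenitors, ranged from 1.68 to 6.15 CPM in C10 (median 3.12) and from 0.469 to 1.25 CPM in CON (median 1.13), without overlap (1.73 ± 0.41; edgeR adjusted p = 0.111), and Gap43, of growing axons, was at 1.00 ± 0.30 (edgeR adjusted p = 0.174). The mean log2 CPM of the list ran from 5.02 to 5.77 in C10 and from 3.97 to 4.95 in CON, without overlap.

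Mature olfactory neurons had 16 of 16 markers above 0 and a median of 0.25. edgeR and DESeq2 called 0 of them, 1 was higher at an unadjusted p under 0.05, and their summed level overlapped, from 5876 to 10217 CPM in C10 and from 3940.4 to 9611 CPM in CON. With the macrophage covariate that median was -0.16, so its sign turned, and the progenitor median was 0.41. Of 611 odorant receptor genes tested, of 1106 listed, 550 (90.0%) lay above 0, with a median of 0.51 against 0.01 over all genes. Their summed level ran from 1934 to 3463 CPM in C10 and from 906 to 2769 CPM in CON, with overlap. Olfr1167 alone was called by edgeR, while DESeq2 called 6 higher, and edgeR called 3 without CRS 1, 2 and 5 and 8 with the level of mature neurons as a covariate. Olfr1167 ranged from 2.06 to 6.5 CPM in C10 (median 3.51) and from 0.501 to 1.72 CPM in CON (median 1.39), and rose (1.60 ± 0.30; edgeR adjusted p = 0.0342), with 5 of 18 fits keeping the call when 1 library was left out. Odorant receptors are a family of similar copies, and their counts can be split between copies. With the level of mature neurons as a covariate the progenitor median was 0.56 with 7 members called higher, and that of the receptors 0.28. How much olfactory lining each sample held was not given, and its part in these values was not tested beyond that covariate.

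**Figure D4:**
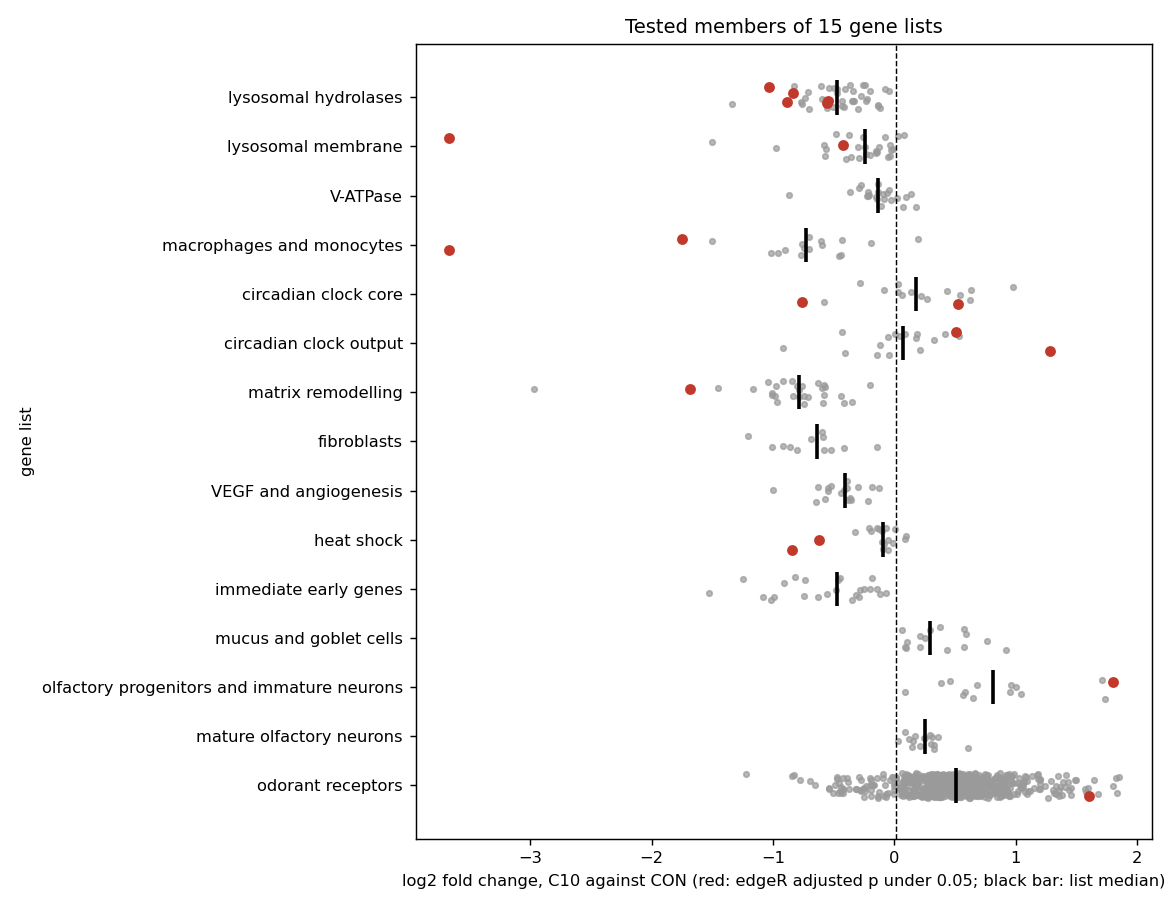
Log2 fold changes of C10 against CON (x axis) for the tested members of 15 gene lists (y axis). Each point is a gene, red where the edgeR adjusted p was under 0.05, black bars are list medians and the dashed line is the median of all tested genes at 0.01; hydrolases lie left of it, with a median of -0.47, and olfactory progenitors right of it, with 0.81.

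Called genes of the connective tissue matrix were lower in C10. Eln, which encodes elastin, (ENSMUSG00000029675, chromosome 5 from 134702593 to 134747323) ranged from 38.6 to 78.5 CPM in C10 (median 65.7) and from 160.5 to 292 CPM in CON (median 184). It fell 3.21-fold without overlap (-1.68 ± 0.27; edgeR adjusted p = 0.016), and its CRS libraries reached into both ranges, from 75.4 to 237 CPM (median 92.1), at -0.72 ± 0.27 against CON (edgeR adjusted p = 0.254). The call ended without C10 4, 5 or 6 (edgeR adjusted p up to 0.0588). Plod1 and Spon2 are matrix genes outside the list. Plod1, which hydroxylates lysines of collagen, ranged from 28.7 to 41.4 CPM in C10 (median 32.1) and from 43.1 to 82.2 CPM in CON (median 57.8), and fell (-0.83 ± 0.15; edgeR adjusted p = 0.0327). Spon2, a secreted matrix protein, ranged from 3.62 to 4.77 CPM in C10 (median 4.36) and from 6.78 to 10.2 CPM in CON (median 8.71), and fell 2.02-fold (-1.02 ± 0.16; edgeR adjusted p = 0.0122).

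Of 30 genes of matrix remodelling Eln alone passed, 0 of 30 lay above 0 and the median was -0.78 (CRS against CON, -0.58). DESeq2 called 6 of them lower, and edgeR called 5 with C10 and CON alone, 8 without CRS 1, 2 and 5, 9 with the olfactory covariate and 0 without C10 4. Among those that did not pass, Timp2 was at -0.57 ± 0.14, Col3a1 at -0.99 ± 0.31 and Col1a1 at -1.16 ± 0.39, with edgeR adjusted p from 0.115 to 0.223. Mmp3, stromelysin, ranged from 0.977 to 17 CPM in C10 (median 4.26) and from 18.5 to 106 CPM in CON (median 39.3), and did not pass either (-2.97 ± 0.71; edgeR adjusted p = 0.111). All 12 fibroblast markers lay below 0 (median -0.64), with 10 at an unadjusted p under 0.05, 0 called by edgeR and 4 by DESeq2. Their summed level ran from 1054 to 1502 CPM in C10 and from 1513 to 2463 CPM in CON, without overlap, and Col6a2, a collagen of fibroblasts, was at -1.01 ± 0.25 (edgeR adjusted p = 0.115). Endothelial markers had a median of -0.50 over 16 genes, and smooth muscle and pericyte markers -0.51 over 12. Other cell types lay lower beside them: erythroid markers had a median of -1.02 with 7 of 8 below 0 (-0.48 without CON 3), and basal and squamous epithelium -0.60 with 17 of 18 below 0. The summed level of the erythroid markers ran from 122 to 409 CPM in C10 and from 171 to 1206 CPM in CON, and that of the basal and squamous markers from 375 to 499 CPM in C10 and from 465 to 825 CPM in CON, both with overlap. edgeR called 0 of either, DESeq2 called 0 and 2 lower, and 2 and 6 were lower at an unadjusted p under 0.05. Their part in the stromal values was not tested. In CRS against CON the medians were -0.57 for fibroblasts, with 12 of 12 below 0, -0.44 for endothelium and -0.49 for smooth muscle and pericytes. They were -0.43 for the VEGF list, -1.13 for erythroid markers and 0.05 for basal and squamous epithelium. In C10 against CRS they were, in the same order, -0.22, -0.09, 0.01, -0.07, 0.31 and -0.39. With the macrophage covariate the medians of C10 against CON were -0.40 for matrix, -0.36 for fibroblasts, -0.21 for endothelium and -0.18 for the VEGF list. Genes of vessel growth, the VEGF list, had 0 of 18 above 0, 9 lower at an unadjusted p under 0.05, 0 called by edgeR, 1 by DESeq2 and a median of -0.40, and their mean log2 CPM ran from 3.66 to 4.17 in C10 and from 4.19 to 4.71 in CON. Vegfb was at -0.38 ± 0.09 (edgeR adjusted p = 0.119), against -0.54 ± 0.09 for C10 against CRS (edgeR adjusted p = 0.029).

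Bone and cartilage markers were below 0 in 16 of 16 as well: their summed level ran from 172 to 525 CPM in C10 and from 231 to 2047 CPM in CON, with a median of -0.98 that was -0.38 without CON 3. Fibroblast and matrix medians were less tied to that library, at -0.56 and -0.62 without it. The share of deep tissue or bone in a sample was not given, and its part in the matrix values was not tested. The lower level of stromal genes beside the higher level of olfactory genes is measured as shares of 1 library total, so each gene's value depends on the others.

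Itgbl1, Nkd1 and Gas1 also fell; they lie outside the naming rule and were chosen after their values were seen. Itgbl1, an integrin-like secreted protein, ranged from 18.9 to 26.2 CPM in C10 (median 21) and from 32.3 to 43.4 CPM in CON (median 33.5), and fell (-0.72 ± 0.12; edgeR adjusted p = 0.018). Nkd1, a feedback inhibitor of Wnt signalling, ranged from 10.5 to 14.1 CPM in C10 (median 12.2) and from 17.5 to 19.5 CPM in CON (median 18.3), and fell (-0.57 ± 0.11; edgeR adjusted p = 0.0353). Gas1, a co-receptor of Hedgehog ligands, ranged from 59.8 to 85.1 CPM in C10 (median 73.2) and from 92.7 to 111 CPM in CON (median 100.4), and fell (-0.46 ± 0.08; edgeR adjusted p = 0.0327). In CRS against CON the log2 fold changes were -0.48 ± 0.12 for Itgbl1, -0.43 ± 0.11 for Nkd1 and -0.29 ± 0.08 for Gas1, and none of them passed (edgeR adjusted p from 0.206 to 0.215).

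**Figure D5:**
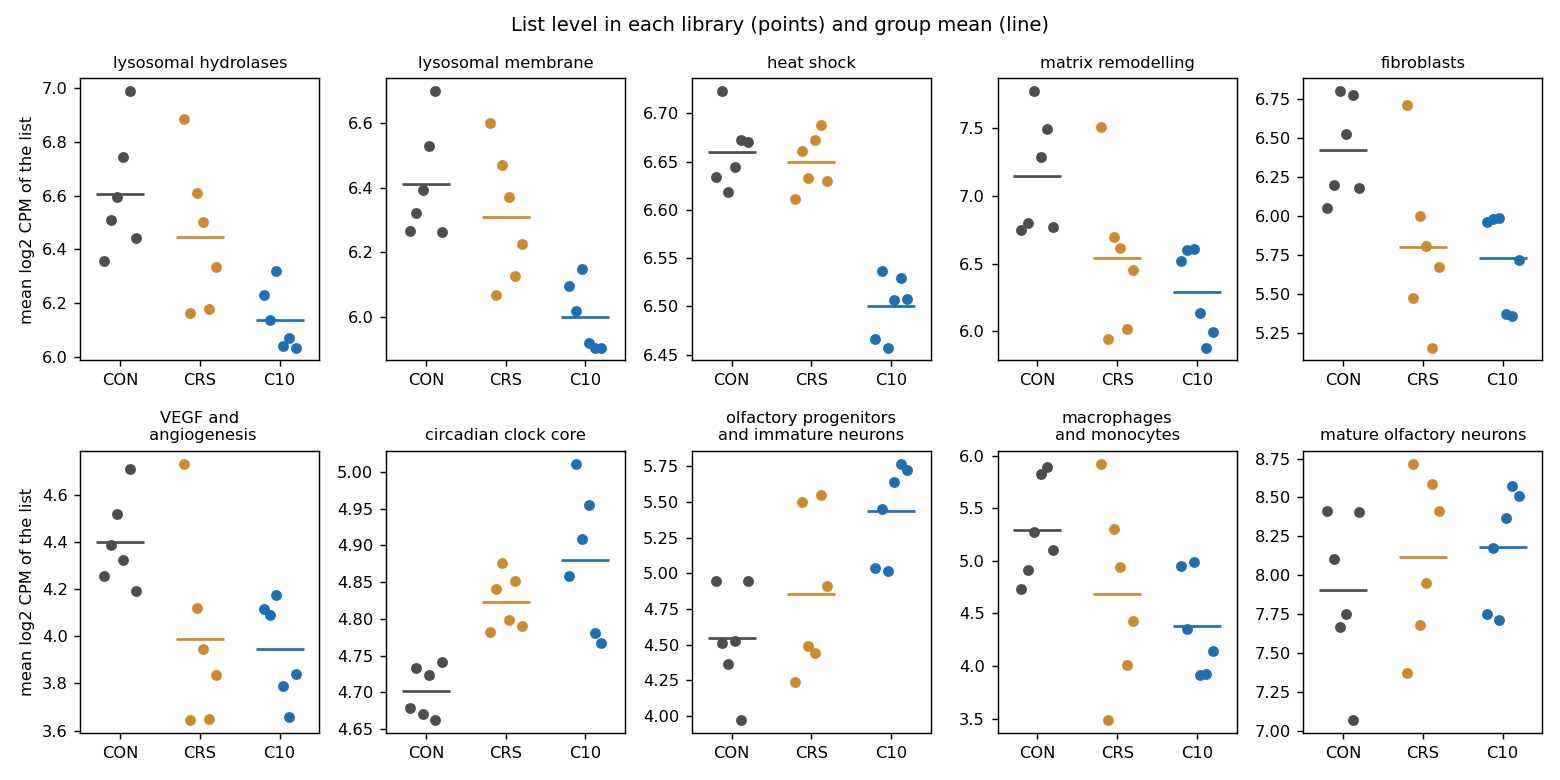
Mean log2 CPM (y axis) of 10 gene lists in each library, by group (x axis); points are libraries and lines group means. The lysosomal, heat shock, matrix, fibroblast and VEGF lists lie wholly lower in C10 than in CON and the clock core and olfactory progenitor lists wholly higher, while macrophage and mature neuron lists overlap.

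Both inducible HSP70 genes fell. Hspa1b, one of a pair of near-identical HSP70 genes, ranged from 26.7 to 45.2 CPM in C10 (median 35.6) and from 54.3 to 73.7 CPM in CON (median 64.7), and fell 1.8-fold (-0.85 ± 0.13; edgeR adjusted p = 0.0122). Hspa1a, its copy, ranged from 14.6 to 17 CPM in C10 (median 15.4) and from 20.9 to 25.3 CPM in CON (median 24.5), and fell (-0.62 ± 0.10; edgeR adjusted p = 0.018). Reads can be shared between these copies, so the values of each are uncertain. In CRS against CON they were at -0.48 ± 0.13 and -0.37 ± 0.10 (edgeR adjusted p = 0.206 each). Of 18 heat shock genes 2 fell, 0 rose and the median was -0.10, and Hsph1, a partner of HSP70, was at -0.32 ± 0.09 (edgeR adjusted p = 0.152). The mean log2 CPM of the list ran from 6.46 to 6.54 in C10 and from 6.62 to 6.72 in CON, without overlap. Of 23 genes of the ER stress response edgeR and DESeq2 called 0, 1 was higher and 1 lower at an unadjusted p under 0.05, and the median was -0.04.

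Immediate early genes, which cells switch on within minutes of a stimulus or of handling, had 0 of 24 above 0 and a median of -0.47, with 8 lower at an unadjusted p under 0.05, 0 called by edgeR and 2 by DESeq2. Nr4a2 ranged from 7.67 to 11.1 CPM in C10 (median 8.66) and from 13.8 to 33 CPM in CON (median 19.8), without overlap (-1.25 ± 0.27; edgeR adjusted p = 0.0735), and Nr4a1 was at -1.08 ± 0.27 (edgeR adjusted p = 0.131). Egr1 ranged from 25.1 to 81.8 CPM in C10 (median 55.4) and from 48.5 to 145 CPM in CON (median 86.8), with overlap (-0.82 ± 0.29; edgeR adjusted p = 0.249). Genes of acute inflammation had 24 of 27 below 0 and a median of -0.50, with 7 lower at an unadjusted p under 0.05, 0 called by edgeR and 1 by DESeq2. CON 3 stood above the other CON libraries in Il6, Il1b and Tnf. Il6 ranged from 0.311 to 0.672 CPM in C10 (median 0.432) and from 0.345 to 12.2 CPM in CON (median 1.45) (-2.74 ± 0.78; edgeR adjusted p = 0.163). Il1b was at -0.72 ± 0.55 and Tnf at -0.71 ± 0.41 (edgeR adjusted p = 0.601 and 0.469), and Ptgs2, cyclooxygenase 2, at -1.45 ± 0.50 (edgeR adjusted p = 0.232). Without CON 3 the median of the inflammation list was -0.15. With the macrophage covariate it was -0.03.

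The transcript of the compound's target was low and overlapped between the groups. Apex1 ranged from 3.9 to 6.46 CPM in C10 (median 5.04) and from 4.94 to 7.74 CPM in CON (median 6.07), and was at -0.27 ± 0.15 (edgeR adjusted p = 0.444), against -0.06 ± 0.15 in CRS. An inhibitor acts on the protein, so this value does not check the treatment. Of 23 genes of base excision repair edgeR and DESeq2 called 0, with 2 higher at an unadjusted p under 0.05 and a median of -0.03. Of 30 redox and antioxidant genes both tools called 0, with 4 higher and 1 lower at an unadjusted p under 0.05 and a median of -0.01. Txn1, thioredoxin, a reducing partner of APE1, was at 0.17 ± 0.15 (edgeR adjusted p = 0.65). Mitochondrially encoded genes had a median of 0.08 in C10 against CON and 0.72 in CRS against CON, and cytosolic ribosomal protein genes 0.06 and 0.30, with 0 of 13 and 0 of 85 called by edgeR or DESeq2 in C10 against CON and 0 and 1 at an unadjusted p under 0.05.

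The remaining called genes belong to none of the lists. Slc25a34, a mitochondrial carrier, ranged from 1.34 to 2.59 CPM in C10 (median 1.77) and from 3.64 to 8.16 CPM in CON (median 4.85), and fell 2.8-fold (-1.49 ± 0.23; edgeR adjusted p = 0.0122). Nkain1, a partner of the sodium pump, ranged from 0.997 to 1.57 CPM in C10 (median 1.21) and from 2.05 to 5.67 CPM in CON (median 3.14), and fell (-1.44 ± 0.26; edgeR adjusted p = 0.0321). Its CRS libraries were low as well, from 1.05 to 2.38 CPM (median 1.43), at -1.17 ± 0.25 against CON (edgeR adjusted p = 0.206). Mfsd12, a cysteine transporter of lysosomes and melanosomes that was chosen after its values were seen, ranged from 18 to 27.9 CPM in C10 (median 24) and from 30.7 to 45.7 CPM in CON (median 34.1), and fell (-0.61 ± 0.12; edgeR adjusted p = 0.0427). Thegl ranged from 5.32 to 7.48 CPM in C10 (median 5.87) and from 2.23 to 3.91 CPM in CON (median 3.47), and rose (0.87 ± 0.16; edgeR adjusted p = 0.0321). The antisense model 4732440D04Rik, chosen after its values were seen, rose (0.71 ± 0.14; edgeR adjusted p = 0.0469), but it overlaps Rb1cc1 on the opposite strand. Of the 29 called genes 16 overlap another gene model, among them Dbp with Sphk2, Lamp1 with Grtp1, Hexa with Tmem202 and Neurod1 with Cerkl. The share of such overlaps over all tested genes was not computed. The library kit is not stated to keep the strand, so reads of pairs on opposite strands cannot be told apart where they overlap. Neurod1 and Cerkl lie on the same strand, where a kit that keeps the strand would not separate them either.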

How the data were processed

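Poly(A) RNA of nasal mucosa was sequenced, per the labels' protocols, and the strand setting of the kit is not stated. The authors deposited a table of raw counts (whole numbers) for 54532 genes, with the libraries as columns. The deposited FPKM values were scaled by library sizes between 0.877 and 1.081 of the summed counts, within 0.0202 of edgeR's TMM factors, and were used only as an alternative. The submitters' processing notes give the build mm10; aligner, counter and annotation: not given in the sources used here. All columns were matched to a library, 0 were left over, and groups came from the sample titles.

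Counts were analysed in R 4.3.3 with edgeR 4.0.16. Genes low in counts were removed with filterByExpr (18291 kept, 36241 removed), libraries were scaled by TMM, and the quasi-likelihood fit held all 18 libraries and a mean for each group. Tests were two-sided, with Benjamini-Hochberg adjustment over all genes tested and a threshold of 0.05. Standard errors were taken as the absolute log2 fold change divided by the root of the F statistic, and the biological coefficient of variation was 0.264. A list level is the mean log2 CPM (prior count 2) of its tested members in a library; lists received no set test. The members, the 50 gene lists and the tests were chosen with earlier results of these data known.

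Genes were named by a rule: up to 12 called rises and 12 called falls averaging 1 CPM or more, with each library on its own side of the opposite group's median, models without a proper symbol and receptor families excepted; the 3 called members of smallest p of each list, or the 1 of smallest p where none was called; and 24 fixed genes, of which 19 were tested. All others named were chosen after their values were seen, and 1 list member is not reported here. Alternatives were RLE factors, no filter, 1 CPM in 6 libraries, a replicate block, C10 and CON alone, an olfactory neuron covariate, DESeq2 1.42.0, limma 3.58.1 (voom with quality weights, and log2 FPKM with pseudocounts of 1 and 0.1), a minimum of 1.5-fold and each library left out. A macrophage covariate and a fit without CRS 1, 2 and 5 were added after the data were seen. On simulated counts of 18291 genes edgeR recovered 28 of 100 genes changed 1.5-fold and 71 of 100 changed 2-fold for C10 against CON, with 8 false calls. No library was a repeat of another: chi-square per degree of freedom was at least 14.5 in all 153 pairs.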

Additional observations from a re-analysis of the deposited data

Results flagged for a closer look

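In a group of 6 libraries, 1 library stood apart where its gap to the nearest of the others, over the range of the group, passed Dixon's 95% critical value. Of 264 groups tested, 20 did (7.58%), and chance gives about 1 in 20. CON 5 was the highest CON library for 6 genes, given with the range of the other 5: Ctsd at 1108 CPM against 515 to 728, Lamp1 at 928 CPM against 704 to 778, and Dpp7 at 35 CPM against 18.7 to 23.7. Cd63 was at 409 CPM against 239.6 to 300.5, Atp6v1c1 at 69.1 CPM against 58.3 to 61.9 and Chil3 at 27 CPM against 5.58 to 13.5. Of these Ctsd, Lamp1 and Dpp7 were called, and the calls of Ctsd and Dpp7 held without CON 5. CON 3 was the highest for Il6, at 12.2 CPM against 0.345 to 2.93, Il1b, at 258 CPM against 50.2 to 114, Tnf, at 23.8 CPM against 4.43 to 11.5, and Galnt15, at 36.5 CPM against 28.2 to 30.8. It was also highest in the mean log2 CPM of 3 lists, at 7.03 for redox and antioxidant genes (others 6.79 to 6.87), 5.67 for glucocorticoid-induced genes (others 5.31 to 5.39) and 7.61 for luminal respiratory epithelium (others 7.35 to 7.42). CON 6 was the highest for Chil4, at 22 CPM against 0.176 to 3.1.

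Among the C10 libraries, C10 2 was the lowest for Il33, at 113 CPM against 127 to 133, and the highest for Itgbl1, at 26.2 CPM against 18.9 to 21.4; its mean log2 CPM of basal and squamous epithelium was 3.24 (others 2.30 to 2.64). C10 6 was the highest for Nfil3, at 17 CPM against 12.8 to 13.9, and in the ER stress list, at 7.21 (others 7.00 to 7.06). C10 3 was the highest for Ighg1, an antibody heavy chain, at 482 CPM against 8.81 to 116.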

How the results depend on the processing

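For C10 against CON, edgeR called 8 genes higher and 21 lower. The counts were 8 and 21 with RLE factors, with 1 CPM in 6 libraries and, for log2 of FPKM plus 0.1, with limma, and 10 and 18 for FPKM plus 1. They were 2 and 15 with no filter, 2 and 10 with the replicate block, 46 and 115 with C10 and CON alone, 106 and 145 with the olfactory covariate, 74 and 60 with the macrophage covariate added later, 118 and 186 with DESeq2, 97 and 155 with voom, 56 and 141 without CRS 1, 2 and 5 (added later), and 0 and 0 with a 1.5-fold minimum, where 300 genes had an unadjusted p under 0.05. With 1 library left out the counts ran from 1 to 23 and from 2 to 87. Of the 29 genes 3 passed without C10 4, 6 without C10 5, 8 without CON 2, 12 with the replicate block and 29 with DESeq2. The cause of these shifts was not tested. The labels do not say whether replicate numbers pair the libraries. Same-numbered C10 and CON libraries had correlations of -0.417 to 0.185, and 1 of 6 pairs was over 0.1. Only 1 of 6 C10 libraries correlated best with its own number. Such values cannot tell whether same-numbered libraries shared a batch. Over 30 alternatives the 29 called genes gave 870 values, of which 628 kept the direction and the call, 242 kept the direction but did not pass, and 0 changed sign. The 53 other named genes gave 1590 values, of which 134 passed and 1 changed sign: Il1b was at 0.061 with the macrophage covariate. Of 1500 list medians 8 moved by more than the spread between libraries, all with that covariate. At these depths 3 counts equal at least 0.163 CPM, which limits the type 2 cytokines.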
